A study of Mus musculus with 9 samples.

Results

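The 3 control libraries of RAW264.7 cells were described here, out of 9 small RNA libraries in the series. They were taken by their label as control. No value of a library treated with ginsenoside Rd (GRd, a saponin of ginseng) was used below. The list of sequences, however, is that of the whole series. Numbers of listed sequences, families and arms, and medians over them, therefore include sequences at 0 in every control library. RAW264.7 is a mouse macrophage-like line of male BALB/c origin that arose in a tumour induced by a leukaemia virus, so it models a dividing, transformed macrophage and not a resting one. Per the labels the cells were wild type and grew in DMEM with 10% fetal bovine serum. The other 6 libraries came from cells given lipopolysaccharide (LPS, a bacterial cell wall component) for 6 h and GRd at 1 or 10 µM for 24 h. The labels disagree on LPS in the control cells. The treatment label gives them neither LPS nor GRd, while the sample description and the treatment protocol place them at 0 µM GRd after LPS. The repertoire below is therefore that of RAW264.7 cells without GRd, with or without LPS. Nothing in the labels says that the 3 libraries came from separate cultures, so the spread between them may be technical.

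A microRNA (miRNA) is cut from a hairpin precursor in which 2 arms pair with each other. Drosha and Dicer release a duplex of the 5p and the 3p arm, and usually 1 strand is kept in an Argonaute protein, where it guides silencing of messenger RNAs. Target choice depends mainly on the seed, bases 2 to 8 from the 5′ end, so miRNAs with a shared seed form a family, and a shift of the 5′ end by a base changes the seed while a shift of the 3′ end does not. In macrophages miR-155 and miR-146a are known as miRNAs induced through Toll-like receptors, miR-223 as a myeloid miRNA and miR-142 as a miRNA of blood cells in general.

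The table held 1571 different sequences with values that the authors had normalized per library (normalized counts, which are not whole reads). The control sums were 6350250, 6307952 and 6542215 normalized counts, and 867, 1049 and 811 sequences were above 0 in control libraries 1, 2 and 3. The read depth behind these sums is unknown. The smallest values above 0 were 1.59, 1.60 and 2.21. Of all sequences 709 were above 0 in all 3 control libraries and 415 in none. 892 sequences were placed in a mouse miRNA hairpin, and they held 99.0 ± 0.0717% of the normalized counts (SD, n = 3, as for every share below). Of these, 689 lay whole in the hairpin and held 93.3 ± 0.672%. A further 159, with 1.14 ± 0.0470%, were placed only without up to 3 bases at the 3′ end. The other 44, with 4.55 ± 0.704%, were placed only with 1 mismatch, and most of that was miR-5099-3p (4.28%).

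The most abundant sequences are printed here because the results turn on them. Each is given as listed in the deposited table, in DNA letters, with its seed in capitals.
miR-99b-5p: cACCCGTAgaaccgaccttgcg
miR-99a-5p: aACCCGTAgatccgatcttgtg
miR-221-3p: aGCTACATtgtctgctgggttt
miR-222-3p: aGCTACATctggctactgggtct
miR-92a-3p: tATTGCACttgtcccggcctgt
miR-21a-5p: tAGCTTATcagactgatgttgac
miR-5099-3p: tCTTAGATcgatgtggtgctc
miR-191-5p: cAACGGAAtcccaaaagcagctg
let-7c-5p: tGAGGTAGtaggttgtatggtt
miR-146a-5p: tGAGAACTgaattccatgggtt
The first 2 pairs share their seeds, so the 10 most abundant sequences carry 8 seeds. None of the 10 begins with g.

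The repertoire was held by few sequences. The 10 most abundant made up 51.0 ± 0.274% of the normalized counts, the 20 most abundant 67.9 ± 0.433% and the 100 most abundant 96.9 ± 0.121%. 52 sequences made up 90%. The most abundant sequence, miR-99b-5p, held 8.71 ± 1.17% by itself, while the median sequence of the table averaged 5.12 normalized counts. 16 sequences averaged at least 100000 normalized counts, 168 at least 1000 and 641 at least 10.

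**Figure D1:**
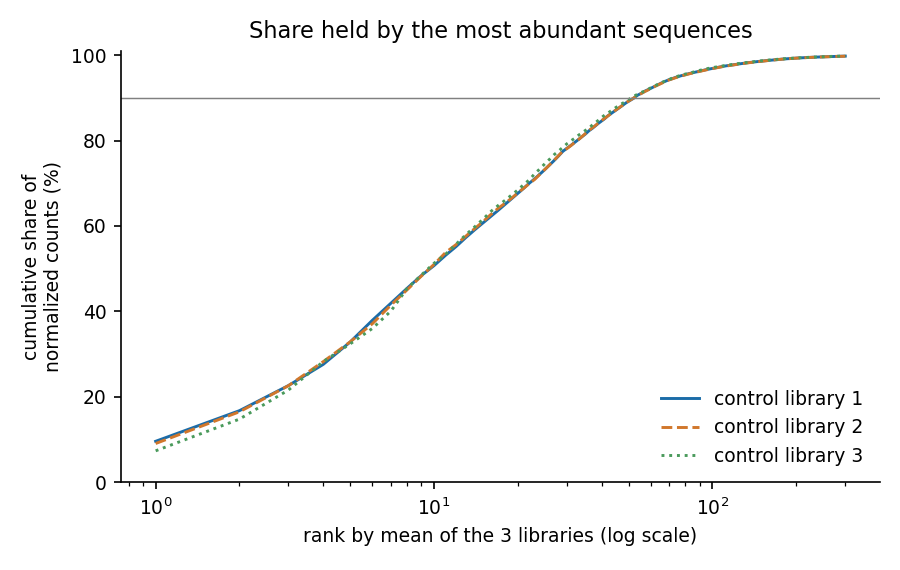
Cumulative share of the normalized counts (y axis, %) against the rank of each sequence by its mean over the 3 control libraries (x axis, log scale), with a line for each library. The 3 lines nearly coincide, and they pass 90% at about rank 52.

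miR-99b-5p, which is known in other cells as a repressor of the mTOR pathway, had 611204, 574402 and 483807 normalized counts in control libraries 1, 2 and 3. miR-221-3p, a repressor of the cell cycle inhibitor p27, had 455081, 468248 and 485466. These ranges overlap, and miR-99b-5p stood first in libraries 1 and 2 and miR-221-3p in library 3.

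miR-222-3p, transcribed with miR-221, followed with 373360, 385640 and 445612 normalized counts, all below the 3 values of miR-221-3p. miR-92a-3p, the last member of the miR-17-92 cluster, had 314349, 354918 and 434939. miR-21a-5p, an abundant miRNA of many tumours and of activated immune cells, had 333587, 292297 and 271479. The order of these last 2 was not the same in every library, since miR-21a-5p was ahead of miR-92a-3p in library 1 and behind it in libraries 2 and 3.

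Ranks 6 to 10 went to miR-5099-3p with 320224, 265476 and 234676 normalized counts, miR-99a-5p with 256139, 276130 and 267568, miR-191-5p with 220053, 225096 and 345109, let-7c-5p with 189298, 202334 and 205336, and miR-146a-5p with 148167, 173836 and 180691. Library 3 was high for miR-191-5p, which ranked 5 there and 8 in the other two. let-7c-5p ranked 9 in all 3 libraries, and its values lay below every value of miR-191-5p and above every value of miR-146a-5p.

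The next 10 were miR-23a-3p, miR-125b-5p, miR-30d-5p, let-7d-5p, miR-140-3p, let-7b-5p, miR-146b-5p, miR-423-3p, miR-378a-3p and let-7a-5p, with means between 155465 for miR-23a-3p and 78703 for let-7a-5p. miR-146b-5p was the steadiest of them at 90390, 90732 and 92206 normalized counts. Of the 19 pairs of neighbours in the top 20, 13 overlapped in their values, so their order is not resolved by 3 libraries, and 6 did not. The pairs that did not overlap were miR-221-3p with miR-222-3p, miR-191-5p with let-7c-5p, let-7c-5p with miR-146a-5p, miR-30d-5p with let-7d-5p, let-7b-5p with miR-146b-5p and miR-146b-5p with miR-423-3p. 17 sequences were among the top 20 of all 3 libraries.

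**Figure D2:**
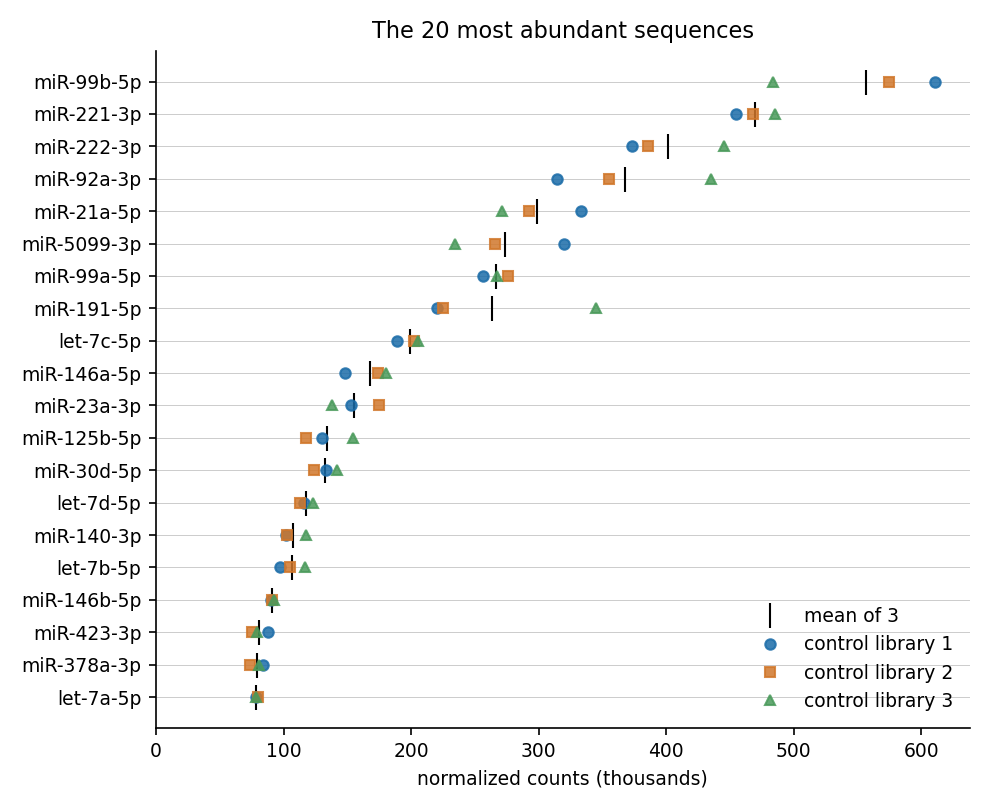
Normalized counts (x axis, in units of 1000) of the 20 most abundant sequences (y axis) in each of the 3 control libraries, with a tick at the mean. Library 3 stands to the right for miR-191-5p (345109 normalized counts) and to the left for miR-99b-5p (483807), while miR-146b-5p and let-7a-5p hardly vary.

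The spread between libraries depended on the level. The median coefficient of variation (CV, SD over mean) was 9.93% for the 16 sequences with means of at least 100000 normalized counts, 7.02% for the 55 between 10000 and 100000, 9.67% for the 97 between 1000 and 10000, 11.9% for the 160 between 100 and 1000 and 28.2% for the 313 between 10 and 100. Between 1 and 10 the median CV was 173%, the value of a sequence seen in 1 library of 3. Statements on single miRNAs below about 100 normalized counts are therefore imprecise.

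Among sequences with means of at least 1000, the most variable was a piece of the miR-6236 hairpin, with 1192, 1143 and 2885 normalized counts and a CV of 57.0%. A sequence named after pig mir-1285 had 7458, 7424 and 15468 (CV 45.8%), and a piece of the miR-6240 hairpin had 4003, 4055 and 7778 (CV 41.0%). These 3 were all highest in library 3. miR-193a-3p went the other way with 1431, 1448 and 674, as did miR-7a-5p with 21155, 16625 and 10798. The sequence named after marmoset miR-9933 had 1103, 1280 and 2107 (CV 35.8%). Of sequences above 10000, miR-27b-3p varied least, with 68317, 68297 and 68340 normalized counts, and it is named after its values were seen.

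Seed families concentrated the repertoire further. Sequences were grouped by bases 2 to 8, which gave 1165 families, of which 949 held a single sequence and 20 held more than 1% of the normalized counts each. The 10 largest made up 67.4 ± 0.573%.

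The largest family was miR-221 and miR-222 (seed GCTACAT) with 13.6 ± 0.596% of the normalized counts. Its 2 members contributed nearly alike, 53.9% from miR-221-3p and 46.1% from miR-222-3p. The miR-99 family (seed ACCCGTA) held 12.9 ± 1.21%, of which 67.6% came from miR-99b-5p and 32.4% from miR-99a-5p. Their library values crossed. miR-221 and miR-222 together had 13.0, 13.5 and 14.2%, and the miR-99 family had 13.7, 13.5 and 11.5%, so which of these families is larger differed between libraries.

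The let-7 family, known for rising as cells differentiate and for repressing RAS and MYC, had rank 3 with 10.5 ± 0.252% and was spread over the most members, 14 listed sequences of which 13 were above 0 in a control library. The leading form of each of its 9 named members is printed with the shared seed in capitals, since they differ from each other at few bases outside it.
let-7c-5p: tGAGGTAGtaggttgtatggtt
let-7d-5p: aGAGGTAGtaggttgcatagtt
let-7b-5p: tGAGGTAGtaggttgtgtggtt
let-7a-5p: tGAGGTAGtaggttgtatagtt
let-7i-5p: tGAGGTAGtagtttgtgctgtt
let-7e-5p: tGAGGTAGgaggttgtatagtt
let-7f-5p: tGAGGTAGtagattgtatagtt
let-7g-5p: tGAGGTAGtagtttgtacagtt
miR-98-5p: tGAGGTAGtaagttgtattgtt
let-7c-5p gave 29.7% of the family, let-7d-5p 17.5%, let-7b-5p 15.9%, let-7a-5p 11.7% and the main form of let-7i-5p 10.8%. let-7e-5p gave 6.35%, let-7f-5p 3.77% and let-7g-5p 3.22%, and miR-98-5p with 1409, 1361 and 1071 normalized counts gave 0.191%. Members that differ by 1 base can exchange reads through sequencing errors, which was not tested.

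The miR-25/92 family (seed ATTGCAC) held 6.89 ± 0.930%, with 6.02, 6.77 and 7.87% in libraries 1, 2 and 3. miR-92a-3p was 83.4% of it and miR-25-3p 16.4%, while miR-92b-3p had only 690, 746 and 843 normalized counts. Of the next families, 3 rested on a single sequence. These were miR-21a (4.68 ± 0.553%), miR-5099 (4.28 ± 0.730%) and miR-191 (4.10 ± 1.02%). The miR-146 family (seed GAGAACT), a brake on Toll-like receptor signalling through IRAK1 and TRAF6, held 4.04 ± 0.246%. miR-146a-5p was 64.8% of it and the main form of miR-146b-5p 35.2%.

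The miR-125 family (seed CCCTGAG) held 3.33 ± 0.521%, of which the main form of miR-125b-5p gave 62.8%, miR-125a-5p 34.1% and miR-351-5p 2.49%. All 3 were highest in library 3, at 154566, 92849 and 7233 normalized counts there. The miR-23 family (seed TCACATT) held 3.10 ± 0.406%. Its leading form of miR-23a-3p had 153239, 174801 and 138355 normalized counts. A shorter form that could come from either miR-23a or miR-23b had 42051, 47015 and 38737.

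Hairpins that lie close together in the genome are often cut from a common transcript. Hairpins of GENCODE vM21 and RefSeq on GRCm38 were joined into a cluster where they lay within 10 kb on the same strand. Sequences of clusters with more than 1 hairpin held 56.2 ± 1.46% of the normalized counts and sequences of lone hairpins 32.0 ± 1.51%. A further 81 sequences, with 10.9 ± 0.0796%, occur in hairpins of several clusters and could not be assigned. They include let-7c-5p, miR-125b-5p and let-7a-5p. The 10 largest clusters held 51.2 ± 1.53%.

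The largest was the miR-221 and miR-222 cluster at chrX:19146294-19146971 (minus strand), with 13.7 ± 0.603%. The miR-99b, let-7e and miR-125a cluster at chr17:17830188-17830879 (plus strand), within Spaca6, held 10.7 ± 1.01%. Its 3 miRNAs were far from equal. miR-99b-5p gave 81.6% of the cluster, miR-125a-5p 10.6% and let-7e-5p 6.23%. Across libraries they did not move together either, since library 3 had the lowest miR-99b-5p (483807) and let-7e-5p (37762) and the highest miR-125a-5p (92849).

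The miR-17-92 cluster at chr14:115043671-115044506 (plus strand), within Mir17hg, is a MYC target that supports proliferation. It held 6.61 ± 0.838%. miR-92a-3p alone gave 86.8% of that, against 5.97% for the main form of miR-17-5p, 3.73% for miR-17-3p and 2.15% for miR-20a-5p. miR-18a-5p had 755, 702 and 524 normalized counts and miR-19a-3p 102, 37.1 and 21.2. Members of this transcript thus spanned more than 3 orders of magnitude. The listed miR-92a-3p ends in a base that the miR-92a-1 hairpin of this cluster holds and the miR-92a-2 hairpin on chromosome X does not, and so it was placed here. A form ending a base earlier would fit both hairpins.

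The miR-191 and miR-425 cluster at chr9:108568319-108568861 (plus strand) held 4.40 ± 1.01%, nearly all as miR-191-5p. miR-425-5p did not share the rise of miR-191-5p in library 3, with 16868, 17184 and 16127 normalized counts. The miR-99a and let-7c-1 cluster at chr16:77598936-77599750 (plus strand), within Mir99ahg, held 4.17 ± 0.185% through miR-99a-5p, with let-7c-5p left out because let-7c-2 gives the same sequence. The miR-23a, miR-27a and miR-24-2 cluster at chr8:84208518-84208921 (plus strand) held 3.21 ± 0.302%, with 75.8% from miR-23a-3p and 20.8% from miR-27a-3p. miR-24-3p, with 32016, 31377 and 35158 normalized counts, comes from this cluster and from its paralogue on chromosome 13 and was not assigned.

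The remaining 4 of the 10 largest clusters were let-7d, let-7f-1 and let-7a-1 on chromosome 13 with 2.57 ± 0.148%, miR-30b and miR-30d on chromosome 15 with 2.18 ± 0.0851%, miR-25, miR-93 and miR-106b on chromosome 5 within Mcm7 with 2.01 ± 0.0607%, and let-7c-2 and let-7b on chromosome 15 with 1.69 ± 0.124%. In the Mcm7 cluster, a paralogue of miR-17-92, the leading member took the smallest share of the 10 clusters after that of miR-221 and miR-222. miR-25-3p gave 56.2% of it, miR-93-5p 29.9% and miR-106b-3p 10.4%. In the miR-30 pair, miR-30d-5p gave 95.2% and miR-30b-5p 4.13%.

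**Figure D3:**
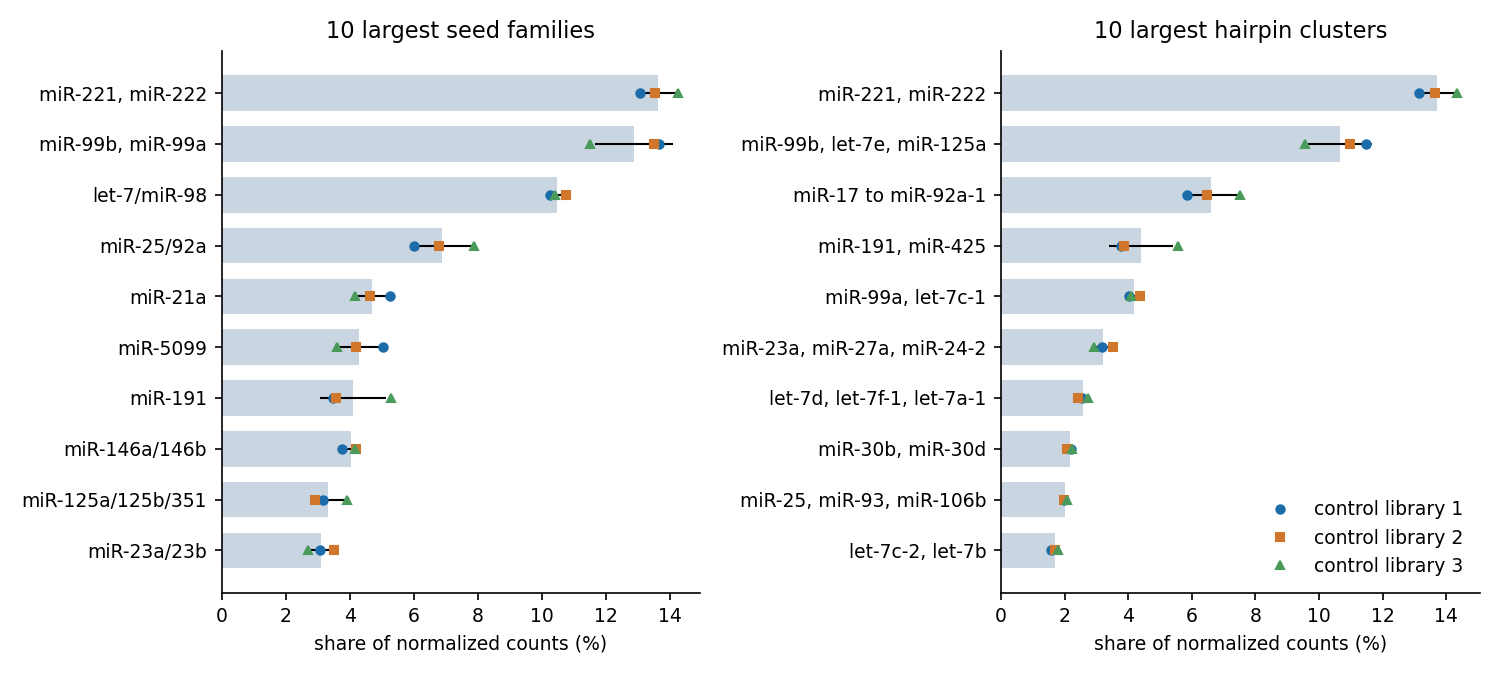
Shares of the normalized counts (x axes, %) of the 10 largest seed families (left) and the 10 largest hairpin clusters (right), as bars for the mean with SD and points for the 3 control libraries. miR-221 and miR-222 lead both panels with 13.6% and 13.7%, and the points of the miR-191 rows spread most relative to their bars, with library 3 highest.

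The 5p and the 3p arm were compared within each hairpin. Hairpins that share a listed sequence were joined into a unit, and all forms of an arm were summed. Of 491 units with a listed sequence, 250 had both arms listed. Over all hairpin sequences the 5p arm held 55.1 ± 0.737% of the normalized counts and the 3p arm 44.9 ± 0.737%. Per unit, the log2 ratio of (5p + 1) over (3p + 1) was tested against 0 with limma and Benjamini-Hochberg adjustment, for units that averaged at least 10 normalized counts over both arms. The 5p arm was higher in 98 of 216 units (45.4%) and the 3p arm in 87 (40.3%) at an adjusted p under 0.05. The remaining 31 did not pass. At an unadjusted p under 0.05, 29 did not pass.

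Most units with both arms listed and a mean of at least 100 normalized counts were strongly one-sided. Of these 152 units, 90 differed more than 10-fold between arms, 52 toward 5p and 38 toward 3p, and 42 differed more than 100-fold. Units with a single listed arm are outside this count. Only 18 of the 152 lay within 2-fold. Among the tested units the 5p arm was listed at 0 in all 3 libraries in 12 and the 3p arm in 10. Such arms are in the list of the whole series without a value above 0 in a control library.

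The 2 most abundant hairpins leaned to opposite arms. miR-99b had 611204, 574402 and 483807 normalized counts on 5p, against 7746, 7328 and 7117 on 3p, a log2 ratio of 6.23 ± 0.08 (SE; limma adjusted p = 2.93e-06). miR-221 had 4449, 4703 and 5461 on 5p, against 455081, 468248 and 485466 on 3p, a log2 ratio of -6.60 ± 0.08 (limma adjusted p = 2.59e-06). The miR-221 hairpin is printed from RefSeq (GRCm38.p6, chrX:19146294-19146388, minus strand) with the leading listed form of each arm in capitals.
Mir221: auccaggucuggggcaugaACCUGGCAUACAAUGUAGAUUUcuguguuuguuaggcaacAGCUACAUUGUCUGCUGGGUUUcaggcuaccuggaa
The first capital run is the 5p arm and the second, the abundant one, the 3p arm.

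The largest ratios toward 5p rested on 3p arms at or near 0, so their size depends on the pseudocount. miR-146a had 148167, 173836 and 180691 normalized counts on 5p, while miR-146a-3p had 0, 7.55 and 0. The 3p arms of miR-484, miR-186 and miR-98 were listed at 0 in all 3 libraries, beside 5p means of 67893, 6524 and 1280. Ratios that do not rest on a 0 were those of miR-99a (11.50 ± 0.08 on the log2 scale), miR-30d (10.94 ± 0.13) and miR-744 (10.10 ± 0.16). miR-181b-5p had 15022, 15134 and 15102 normalized counts, against 14.9, 10.3 and 0 for its 3p arm.

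Toward 3p, miR-320 and miR-200c had 5p arms listed at 0 beside 3p means of 36546 and 1976 normalized counts. miR-652 had 19.1, 8.24 and 0 on 5p and 27749, 28493 and 27702 on 3p. miR-29a, known to repress collagen genes, had 145, 137 and 57.0 on 5p and 76302, 69321 and 73466 on 3p (log2 ratio -9.44 ± 0.32, limma adjusted p = 2.76e-05). miR-222 and miR-92a had log2 ratios of -8.56 ± 0.07 and -8.36 ± 0.15. miR-101b and miR-8112 completed the 8 largest toward 3p, with 5p arms above 0 in 1 library each. In both of the largest seed families the 2 hairpins leaned to the same arm, 5p for miR-99a and miR-99b and 3p for miR-221 and miR-222. The values of the arms did not overlap. These families ranked as the largest through these same arms, so this lean is no separate result.

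Near balance stood miR-674 with 17001, 17778 and 14425 normalized counts on 5p and 14789, 15935 and 16498 on 3p, ranges that overlap (log2 ratio 0.06 ± 0.12, limma adjusted p = 0.689). miR-582, miR-350, miR-361, miR-1843b and miR-1306 were the other 5 nearest to equal, with log2 ratios from -0.01 to 0.37, and none passed the test. These p-values do not show that the arms were equal. Among abundant hairpins, let-7d, miR-423, miR-151 and the miR-17 unit also kept both arms. let-7d had 115981, 112910 and 123108 on 5p and 46720, 40406 and 55236 on 3p (log2 ratio 1.32 ± 0.10, limma adjusted p = 0.000385). miR-423 had 35265, 37861 and 43438 on 5p and 88009, 75121 and 79102 on 3p (log2 ratio -1.06 ± 0.12, limma adjusted p = 0.00154). The let-7d hairpin is printed because both of its arms were among the 30 most abundant sequences (RefSeq GRCm38.p6, chr13:48536012-48536114, minus strand, listed arms in capitals).
Mirlet7d: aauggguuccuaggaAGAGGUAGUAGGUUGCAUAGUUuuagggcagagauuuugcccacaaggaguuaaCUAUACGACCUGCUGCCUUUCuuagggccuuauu
In miR-17 the 5p forms, joined with those of miR-20a, miR-106a and miR-20b, had 36683, 33980 and 32863 normalized counts against 14607, 15197 and 17878 on 3p. Arms with values in the table differ in sequence, and their capture during library preparation was not measured.

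**Figure D4:**
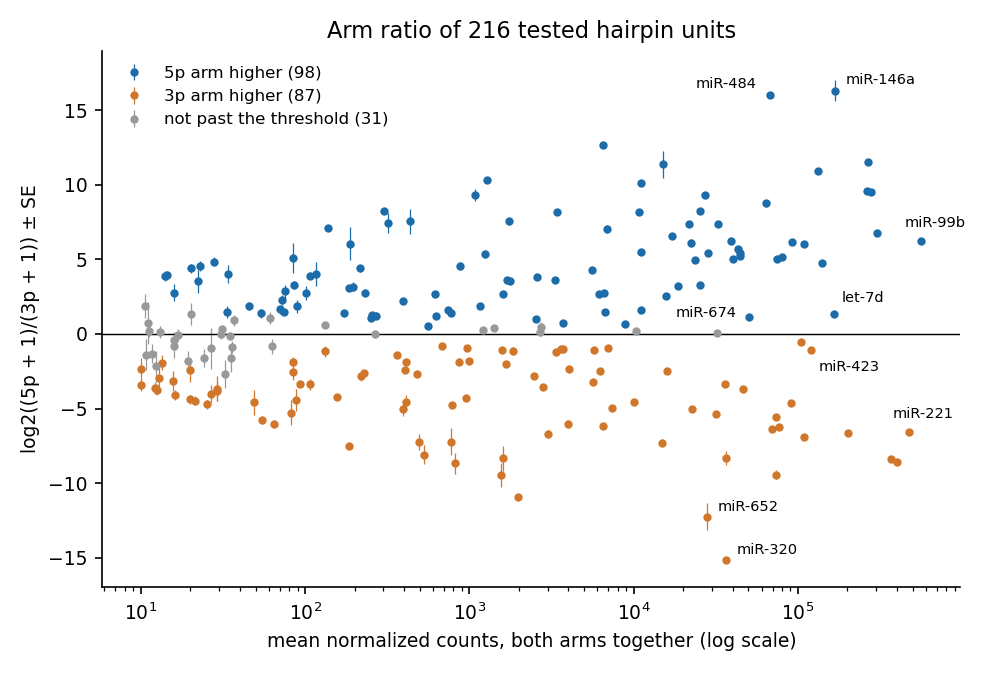
Log2 ratio of the 5p over the 3p arm with SE (y axis, pseudocount 1) against the mean normalized counts of both arms together (x axis, log scale) for the tested hairpin units, coloured by the limma call. 98 units lie above 0 as 5p higher, 87 below as 3p higher, and the 31 grey units that did not pass are mostly at low levels.

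End variants were read from the suffixes of the names. L and R give the bases by which a listed sequence is longer (+) or shorter (-) than the reference miRNA of the species in its name at the 5′ and the 3′ end. 582 sequences with 40.9 ± 1.19% of the normalized counts carried such a suffix. In most of it only the 3′ end differed (35.4 ± 0.543%), longer in 14.5 ± 0.798% and shorter in 20.5, 21.2 and 21.2% in libraries 1, 2 and 3. Among these sequences, whose 5′ end was that of the reference, a difference of 1 base was the commonest, with 17.1% of all counts 1 base shorter and 11.3% 1 base longer at the 3′ end.

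A 5′ difference was listed for 210 sequences with 5.44 ± 0.712% of the counts, and miR-5099-3p was most of it. Without that sequence the other 209 made up 1.16 ± 0.0184%, so the 5′ share rested on it. miR-5099 lies at chr12:36816205-36816278 (plus strand). Its RefSeq hairpin holds all bases of the listed form after the first, shown in capitals.
Mir5099: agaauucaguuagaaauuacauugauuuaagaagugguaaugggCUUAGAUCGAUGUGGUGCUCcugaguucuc
The listed form begins with a base that is not the one before these capitals in the hairpin. Whether the values of this sequence come from the miR-5099 locus was not tested.

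The suffixes use the reference of another species in many cases, so the listed sequences were also compared with the mouse mature miRNAs of RefSeq. This was possible for 590 sequences with 87.2 ± 0.820% of the counts. 55.5 ± 0.719% of all counts were the same as the mouse mature miRNA, 31.4 ± 0.334% differed at the 3′ end only and 0.296 ± 0.0157% differed at the 5′ end. Of all counts 7.56% carried an end suffix but matched the mouse miRNA, such as miR-222-3p, and 6.88% had no end suffix but differed from it, such as miR-92a-3p. The 5 most abundant forms that differ from the RefSeq mature miRNA are shown, with the bases beyond it in capitals. Where the listed form is shorter, the RefSeq sequence is the longer run in RNA letters.
miR-221-3p listed: agctacattgtctgctgggttt
miR-221-3p RefSeq: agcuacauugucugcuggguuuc
miR-92a-3p listed: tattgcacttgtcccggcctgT
miR-92a-3p RefSeq: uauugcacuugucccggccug
miR-21a-5p listed: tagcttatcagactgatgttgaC
miR-21a-5p RefSeq: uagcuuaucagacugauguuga
miR-23a-3p listed: atcacattgccagggattt
miR-23a-3p RefSeq: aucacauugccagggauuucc
miR-140-3p listed: taccacagggtagaaccacggA
miR-140-3p RefSeq: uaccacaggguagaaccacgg
In all 5 the 5′ end and therefore the seed was that of RefSeq. All but miR-92a-3p also carried an end suffix.

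Further abundant forms with an end suffix were miR-30d-5p (R+2; 132956, 123946 and 141864 normalized counts), miR-146b-5p (R+1), miR-155-5p (R+1 against marmoset, but the same as the mouse miRNA) and let-7d-3p (R-1). Below miR-5099-3p, the leading forms with a 5′ suffix were miR-3968 (L-3; 14341, 15423 and 17830 normalized counts), miR-3963 (L-2; 11736, 11924 and 10950), miR-142a-5p (L+2; 5929, 5019 and 4966), miR-330-3p (L-1; 4609, 4069 and 5064) and miR-125b-2-3p (L-2; 3844, 4626 and 5036). The miR-142a-5p form began 2 bases before the RefSeq mature miRNA, while the miR-125b-2-3p form began at the same base as the mouse one. The form placed at miR-3963 is named after cow miR-2478, to which its L-2 refers. It began 3 bases after the start of the mouse mature miRNA. The listed miR-142a-5p is printed with its seed in capitals.
miR-142a-5p: cCCATAAAgtagaaagcacta
Only 61 of 779 miRNAs had more than 1 listed form, so these shares describe the forms the table lists and not the full set of ends of each miRNA.

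In length, 88.2 ± 0.150% of the counts in hairpins were 21 to 23 bases, and 22 bases was the commonest length with 55.3 ± 0.608% of all counts. Sequences that begin with U, the base that Argonaute proteins favour at this end, held 48.7 ± 0.194%, those with A 32.0 ± 0.517%, those with C 18.7 ± 0.323% and those with G 0.626 ± 0.0248%. Counted once each, 39.5% of the sequences with means of at least 1 began with U.

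The 679 sequences outside mouse hairpins looked different. They held 0.965 ± 0.0717% of the counts, and 54.7 ± 6.44% of that was 18 bases or shorter, against 1.12 ± 0.0758% for sequences in hairpins. 60.3 ± 5.76% of their counts ended in CCA, the 3 bases that cells add to the 3′ end of transfer RNAs, against 0.504 ± 0.0121% in hairpins. Per the labels' protocols reads of transfer RNA had been removed before. The most abundant sequence outside hairpins was named after cow miR-1260b, with 13790, 16953 and 13978 normalized counts. Among sequences placed in hairpins, the forms of miR-3968 and miR-3963 had the same end, in capitals here, and differ from each other at few bases.
miR-3968: atcccactcctgacaCCA
miR-3963: atcccacttctgacaCCA
Their shares of the total were 0.248% and 0.180%. Neither lay whole in its hairpin. The miR-3968 form was placed with 1 mismatch and the miR-3963 form without bases of its 3′ end. Whether they come from transfer RNA was not tested.

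**Figure D5:**
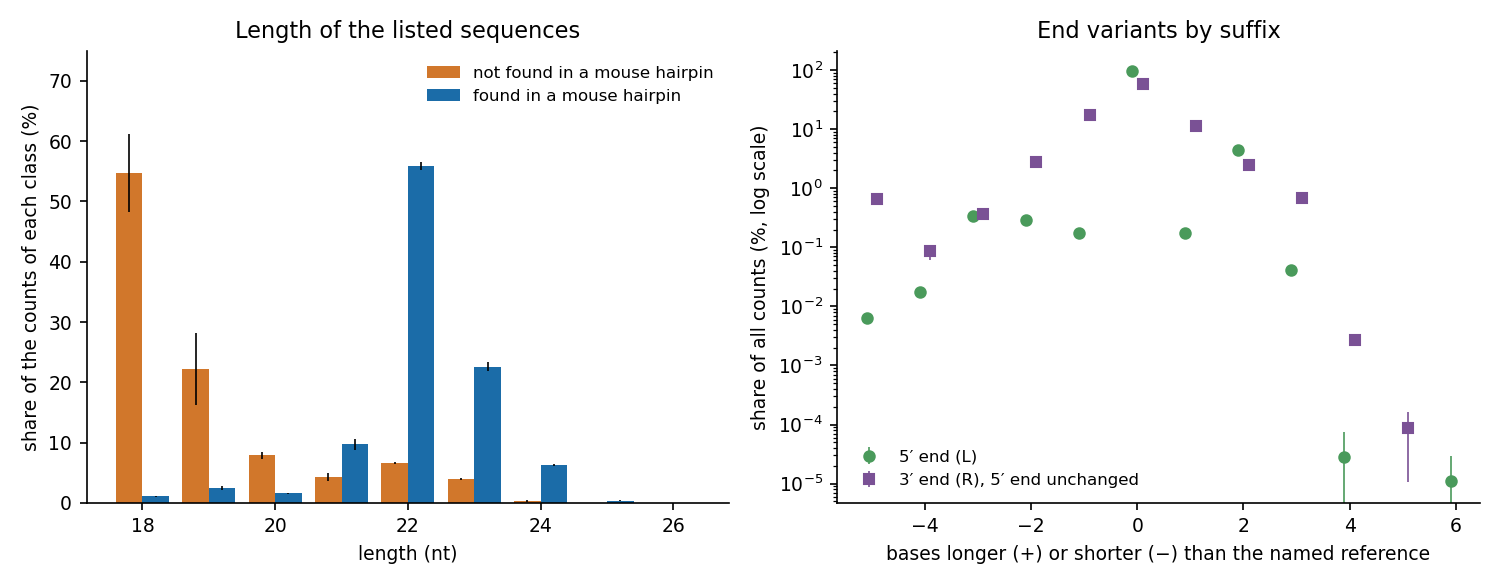
Left, share of the normalized counts of each class (y axis, %) by length (x axis, bases) for sequences not found and found in a mouse hairpin, as mean with SD over the 3 control libraries. Right, share of all counts (y axis, log scale) by the bases that the suffix gives for the 5′ end, and for the 3′ end of sequences with an unchanged 5′ end (x axis); the 5′ points peak outside 0 at +2, which is mostly miR-5099-3p, and the 3′ points fall off on both sides of 0 except for a rise at -5, where the short form of miR-23a or miR-23b lies.

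Named lists of macrophage and immune miRNAs were then read off. The 17 miRNAs known as induced by LPS or as part of its feedback were all listed, 13 of them at means of at least 1000 normalized counts. Together they held 34.0 ± 0.914%, and most of that share came from miR-99b-5p, miR-221-3p and miR-222-3p. Their median was 42481, and that of all single sequences in hairpins 16.5. The list was chosen with earlier results of these data known and sums the forms of each miRNA. The 2 medians are therefore not alike, and their difference is no result about LPS. miR-155-5p, which promotes inflammatory signalling, had 66926, 71210 and 54164 normalized counts and rank 28, and miR-132-3p, which is induced by CREB, had 6550, 6957 and 7830. The least abundant members were miR-147-3p with 98.7, 48.7 and 29.2, miR-9-5p with 16.6, 13.7 and 11.9, and miR-187-3p with 11.7, 7.55 and 0. Members of the list thus ranged from rank 1 to rank 735, and these levels alone do not tell whether the cells had met LPS.

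The myeloid and haematopoietic list held 5.74 ± 0.430%, with 17 of 18 members listed and 7 at means of at least 1000 normalized counts. Most of that share came from the miR-23a, miR-27a and miR-24 members, which many other cell types also hold. miR-23a-3p, summed with forms that could come from miR-23b, was 3.10% of all counts, miR-27a-3p 0.667% and miR-24-3p 0.513%. miR-223-3p, which marks the myeloid lineage and is among the most abundant miRNAs of neutrophils, was low here, with 967, 971 and 800 normalized counts and rank 171. miR-142a-5p had 5929, 5019 and 4966, and miR-142a-3p 1040, 796 and 679. Over their forms, miR-181a-5p had 38511, 40790 and 38260, and miR-342-3p 29281, 32744 and 30350. The miR-181a-5p sum includes forms of equal value, and its main form alone had 37476, 40155 and 37658. miR-511-3p, which lies in an intron of the mannose receptor gene and marks macrophages of tissues, had 8.49, 21.3 and 0, and miR-150-5p, a miRNA of mature lymphocytes, had 14.9, 38.5 and 15.9.

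The miR-17-92 list with its paralogues held 8.63 ± 0.888%, with 19 of 20 members listed and 11 at means of at least 1000. Most of that share was miR-92a-3p with 5.74% of all counts, followed by miR-25-3p with 1.13%. miR-363-3p of the X chromosome paralogue was listed at 0. miR-19b-3p, the member most tied to tumour growth with miR-19a-3p, had 554, 273 and 167 normalized counts.

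miRNAs tied to polarization and metabolism of macrophages held 9.26 ± 0.299%, with 7 of 10 at means of at least 1000. miR-125b-5p had 131118, 118582 and 156085 normalized counts over its forms and the forms of miR-378a-3p, pooled with those that miR-378b, miR-378c or miR-378d could also give, 107708, 95143 and 101339. miR-210-3p, the miRNA induced by hypoxia, had 9521, 9667 and 9683, which is among the narrowest ranges at its level. miR-34a-5p, a p53 target, had 3619, 3956 and 2579. miR-33-5p, which lies in a sterol regulator gene and lowers cholesterol efflux, was near the floor with 9.56, 5.49 and 0, and miR-124-3p was listed at 0 in all 3.

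The label of macrophages was checked against markers. All 8 macrophage markers were listed and held 8.41 ± 0.501%, of which 4 had means of at least 1000 normalized counts (miR-21a-5p, miR-146a-5p, miR-155-5p and miR-142a-5p). Nearly all of that share was miR-21a-5p (4.68%), miR-146a-5p (2.62%) and miR-155-5p (1.00%), which are not particular to macrophages. The markers closer to the lineage were far lower, with means of 5305 normalized counts for miR-142a-5p, 913 for miR-223-3p, 839 for miR-142a-3p and 9.93 for miR-511-3p, and miR-147-3p averaged 58.9. Most markers of other cell types were lower than miR-223-3p, and 2 were higher. The 3 liver markers held 0.0187 ± 0.000386%, the 3 red cell markers 0.000767%, the 2 endothelial ones 0.000456% and the 5 of fibroblasts and mesenchyme 0.0156 ± 0.00129%. Muscle, embryonic stem cell and lymphocyte markers held 1.81e-05%, 0.000148% and 0.000362%, and the lists of epithelium and neurons 0.0342 ± 0.000998% and 0.0405 ± 0.00209%. miR-122-5p had 47.8, 85.1 and 34.5 normalized counts, miR-451a 13.8, 26.8 and 22.5, and miR-144-3p and miR-206-3p were listed at 0. Other members were higher. miR-194-5p of liver had 828, 810 and 882 over its forms and averaged 840, level with miR-142a-3p. miR-192-5p of liver had 309, 310 and 282. Of mesenchyme, miR-199a-3p, pooled with miR-199b-3p, had 710, 689 and 523, and miR-199a-5p 292, 324 and 382. These and miR-200b-3p of epithelium (134, 164 and 152) averaged more than miR-147-3p and miR-511-3p. The 2 above miR-223-3p also stood above miR-142a-3p, miR-147-3p and miR-511-3p. miR-128-3p of neurons had 2419, 2669 and 2637, beside miR-124-3p at 0. miR-200c-3p of epithelium had 2040, 1919 and 1970, beside miR-141-3p, which lies next to it in the genome, at 0, 4.12 and 0. What these levels come from was not tested.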

How the data were processed

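Per the labels' protocols, small RNA libraries were made with a TruSeq kit from some 5 µg of Trizol-extracted RNA and read on a HiSeq 2500, and the authors used ACGT101-miR to drop adapter dimers, low-complexity reads, repeats and other RNA families. The deposited signal values are counts per sequence that the authors normalized per library. Formula, miRBase release, mapping settings and build: not given in the sources used here. Whole reads were not recovered, so intervals from depth are not given and only the spread over 3 libraries is.

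Of 1608 rows, 37 repeated a sequence with equal values and were counted once. Some forms, such as those of miR-181a-5p and miR-181b-5p, held equal values under different sequences, and each was counted. Sequences were placed on 1174 GENCODE vM21 and 48 further RefSeq hairpins (GRCm38): whole (689), without up to 3 bases at the 3′ end (159), or with 1 mismatch (44). Names come from the mature miRNA at that place or, where RefSeq lists none, from the hairpin, and mature and hairpin sequences from RefSeq (GRCm38.p6). Where a name gives no arm, the position in the hairpin set it, and 15 sequences that lie on different arms of their hairpins were left out of arm ratios. miRNAs with no entry in the RefSeq table have no printed RefSeq sequence.

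Shares are means ± SD (n = 3) without a test. Arm ratios were tested in limma 3.58.1 (R 4.3.3) as a moderated one-sample test with a mean-variance trend. The test was first run on simulated data with far smaller ratios than the largest here and without arms at 0. That run does not cover such hairpins. Neighbours in rank were called different only where their 3 values did not overlap. Members and lists were chosen with earlier results of these data known. Named were the top 20, the 10 largest families and clusters, members of each list, the 8 largest arm ratios each way and the 6 nearest to 0 (mean of both arms at least 100), the leading suffixed forms and the 6 most variable sequences above 1000. Other abundant hairpins and forms were named after their values were seen. Python 3.11.15, pandas 2.3.3, numpy 2.4.6 and matplotlib 3.10.9 were used.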

Additional observations from a re-analysis of the deposited data

How the results depend on the processing

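Of 70 alternative values for 9 results, 57 moved by less than the SD between libraries, or for counts by less than 1.5 times, and 13 moved further. Leaving out each control library in turn moved none that far, with the top 10 share between 50.9 and 51.1%, the hairpins with the 5p arm higher between 91 and 96 and those with the 3p arm higher between 76 and 83. With repeated rows kept, the share of the 10 most abundant sequences was 48.6%, that of the 10 largest families 69.0%, that of forms with an end variant 37.8% and that of sequences that begin with U 47.9%. With only sequences found in a mouse hairpin the first 2 were 51.5% and 68.0%. For the arm counts this alternative could not move anything, since arm ratios use only such sequences, yet it is counted among the 57. The 10 largest clusters held 55.7% when sequences of several clusters were split equally, and 45.7% when sequences were placed by mature name, an alternative added after seeing the data. The share with a 5′ end variant was 14.8% with each sequence of mean at least 1 counted once, and that beginning with U 39.5%. Leaving out miR-5099 from all totals, also added after seeing the data, gave 38.2% with any end variant, 1.21% with a 5′ end variant and 46.4% beginning with U. These shifts follow from which counts each alternative adds, drops or weights. No paired analysis was possible because 1 group was used. The 3 libraries limit precision most below about 100 normalized counts.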
